A study of Mus musculus with 6 samples.

Results

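The genes of de novo serine synthesis and of the folate-linked one-carbon pathway were followed in the transcriptome of MS-5 stromal cells, cultured alone or with leukaemic cells. They comprise 10 genes, named by their symbols and not by their values: 3 of serine synthesis (Phgdh, Psat1 and Psph), 2 of the cytosolic folate arm (Shmt1 and Mthfd1) and 5 of the mitochondrial folate arm (Shmt2, Mthfd2, Mthfd2l, Mthfd1l and Aldh1l2). All 10 were found among the 35968 genes with a transcript in the deposited data, and all 10 were among the 13221 genes that passed a filter on low counts. MS-5 is a mouse bone marrow stromal line that maintains haematopoietic cells, and SKM-1 is a human acute myeloid leukaemia (AML) line. The 6 mRNA libraries comprise 3 from MS-5 cells grown alone (MS-5 only, MO1 to MO3) and 3 from MS-5 cells kept for 24 hr with 4 SKM-1 cells per stromal cell, at 750000 SKM-1 cells per ml (co-culture, MC1 to MC3). Both groups were grown in RPMI medium with serum, and the sources used here name neither a transgene nor a drug for them. Leukaemic cells were washed and trypsinised off before the stromal cells were collected. The labels do not say whether replicates were separate cultures, so p-values measure only the spread between these libraries.

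Serine is made from a glycolytic intermediate in a short chain of reactions, and serine hydroxymethyltransferases then split it into glycine and a carbon unit carried by folate. Mitochondrial enzymes oxidise most of these units to formate, which leaves the mitochondrion and is built back by cytosolic enzymes into the folates used to make purines and thymidylate. Proliferating cells depend on this route, and ATF4, a transcription factor of the amino acid and mitochondrial stress response, is known to drive several of its genes.

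With all 6 libraries, none of the 10 genes passed the threshold between co-culture and MS-5 only, which was an adjusted p under 0.1 over all genes tested in edgeR's quasi-likelihood test. 8 of the 10 had a negative log2 fold change and 2 a positive one, with a median of -0.31, beside a median of -0.02 and 52.5% negative values over all genes tested. Of all genes tested, 4.38% passed, 0.666% with lower and 3.71% with higher values in co-culture. At an unadjusted p under 0.05, 1 of the 10 passed, Mthfd1, and 5.63% of all genes passed with lower values. DESeq2 and limma each also called 0 of the 10 genes, where lower calls over all genes were 2.71% with DESeq2 and 0.129% with limma on log2(TPM + 0.5). Lower calls were rare over all genes with each tool, edgeR included, so that a count of 0 of the 10 says little. In a bulk sample, fewer cells of a type and less RNA per cell cannot be told apart.

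The libraries MO2 and MC3 stood apart from the other 4, and no label names a batch. They held counts on 65170 and 66456 transcripts, beside 51533 to 57350 in the others, and the genes of the mitochondrial genome took 6.07% and 5.92% of their estimated counts, beside 10.6% to 13.2%. Total estimated counts ranged from 23978881 to 35694987 per library. The sum of 15 leukocyte marker genes differed between the groups. Their summed TPM (transcript level per length, scaled to one total in each library) was 30.5 to 52.3 in MS-5 only. It was 101, 449 and 144 in MC1, MC2 and MC3. Of the 11 that could be tested, 6 were called higher, beside 3.71% of all genes tested. None of the 15 was at 0 in all libraries. The leukocyte markers Spi1 and Coro1a were at 0.45 to 1.37 and 0.57 to 1.86 TPM in MS-5 only and reached 108 and 188 TPM in MC2. Not all of the list rose: Spn and Cd53 had log2 fold changes of -0.07 and -0.11, against 9 tested markers with positive values. Cd33 stayed at or under 0.19 TPM and Tyrobp at 0 to 0.142 TPM in all 6 libraries. Fcer1g was at 0 to 0.535 TPM and Cd48 at 0 to 0.0662 TPM. The summed TPM of 12 stromal markers was 5195 to 6337, of which Vim alone held 2805 to 4487 TPM, with Col1a1 at 394 to 709 TPM, while Lum was at or near 0, Postn at 0.28 to 2.26 TPM and Thy1 at 0.47 to 7.41 TPM. The TPM of the 10 pathway genes in MC2 was between 0.745 and 1.25 times that in MC1. The part of the leukocyte signal in their values was not tested.

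The level of the 10 genes spanned a wide range in MS-5 only. On the TPM scale, which corrects for transcript length, Shmt2 (mean 299), Phgdh (217) and Psat1 (166) were the most abundant, and their ranges over libraries overlapped from each gene to the next. A second tier followed with Mthfd2 (67.6), Psph (58.4), Aldh1l2 (43.3), Mthfd1l (38.8) and Mthfd1 (34.1), each overlapping its neighbour in that order. Mthfd2l (13.2) and Shmt1 (9.78) came last. In co-culture Shmt2, Phgdh and Psat1 kept the first 3 ranks and no longer overlapped each other, while the mean of Psph lay below those of Aldh1l2 and Mthfd1l. There the range of Mthfd2 overlapped that of Aldh1l2 but lay above those of Mthfd1l and Psph.

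**Figure D1:**
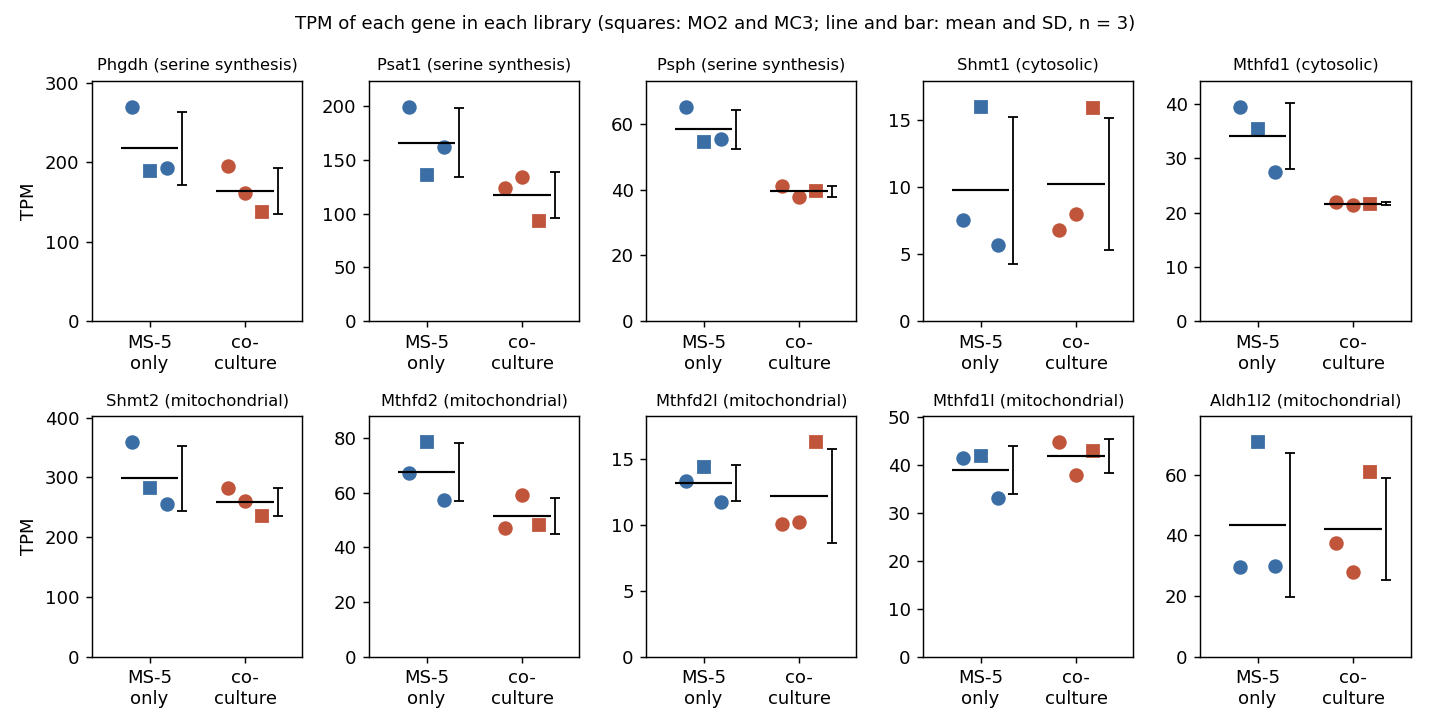
TPM of the 10 genes (vertical axes from 0, each panel with its own scale) in MS-5 only (blue) and co-culture (red), with libraries 1, 2 and 3 from left to right in each group, MO2 and MC3 as squares, and the mean with SD (n = 3) in black. The co-culture libraries lie below all MS-5 only libraries for Psat1, Psph and Mthfd1, and the squares stand high in both groups for Shmt1 and Aldh1l2.

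Phgdh (chr3:98313170-98339990, GRCm38, minus strand) encodes the dehydrogenase that commits 3-phosphoglycerate to serine. Its level was 270, 189 and 193 TPM in MO1 to MO3 and 195, 161 and 137 TPM in MC1 to MC3. The highest library was MO1, and MC1 lay above MO2 and MO3, so that the groups overlapped. The log2 fold change was -0.39 (SE 0.40, 95% interval -1.34 to 0.56, adjusted p = 0.780 by edgeR). Of the 31-base stretches in Phgdh transcripts, 55.9% also occur in transcripts of 23 other genes, and the 22 of these in the data are all pseudogenes. Their summed level was 0.170 to 0.553 TPM in MS-5 only and 1.73, 9.76 and 2.27 TPM in MC1 to MC3, so how reads were divided between Phgdh and its copies is uncertain. With the copies added to Phgdh, the sums were 270, 190 and 194 TPM in MS-5 only and 197, 171 and 139 TPM in co-culture, and the groups still overlapped. The log2 fold change of Phgdh was -0.06 without MO1, -0.11 without MC3, -0.64 without MO2 and -0.63 without MC1.

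Psat1 (chr19:15904678-15947337, minus strand) encodes the aminotransferase of the next step. It was measured at 199, 135 and 162 TPM in MS-5 only and at 124, 134 and 93.0 TPM in co-culture. All co-culture libraries lay below all MS-5 only libraries on this scale, by a narrow margin between MO2 and MC2. They overlapped in CPM (counts scaled to library size and not corrected for length) and in the TPM of protein coding transcripts alone. For Psat1 the log2 fold change was -0.43 (SE 0.41, adjusted p = 0.762), and it was -0.14 without MC3, -0.20 without MO1, -0.70 without MO2 and -0.69 without MC2.

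Psph (chr5:129765558-129787449, minus strand) encodes the phosphatase that releases serine. Its level was 65.2, 54.4 and 55.5 TPM in MS-5 only and 41.2, 37.9 and 39.5 TPM in co-culture, with a wide gap between the groups. In CPM the groups overlapped (90.9, 46.9 and 78.7 against 57.6, 55.1 and 35.2), with MO2 and MC3 both low on that scale. For Psph the log2 fold change was -0.55 (SE 0.30, adjusted p = 0.492), and it was -0.33 without MO1 and -0.36 without MC3. Summed over the 3 serine synthesis genes, TPM was 534, 379 and 411 without AML cells and 360, 333 and 270 in co-culture, a mean of 441 ± 82.0 against 321 ± 46.4 (SD, n = 3).

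In the cytosolic arm, Mthfd1 (chr12:76255298-76319803, plus strand) encodes the trifunctional enzyme that turns formate into the folates used for purines and thymidylate. It was measured at 39.5, 35.3 and 27.4 TPM in MS-5 only and at 21.9, 21.5 and 21.6 TPM in co-culture. It alone of the 10 genes had no overlap of the groups on both the TPM and the CPM scale. Its log2 fold change was the most negative of the 10, at -0.69 (SE 0.27, 95% interval -1.33 to -0.05), with an unadjusted p of 0.0381 and an adjusted p of 0.307 by edgeR. Without MO1 it was -0.42. Mthfd1 shares no 31-base stretch with another gene. Without overlap in TPM there were thus 3 of the 10 genes, all lower in co-culture, beside 7.53% of all genes tested; in CPM there was 1 of 10, beside 9.60%.

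Shmt1 (chr11:60788104-60811718, minus strand) encodes the cytosolic serine hydroxymethyltransferase. Its level was 7.58, 16.0 and 5.72 TPM in MS-5 only and 6.83, 7.99 and 15.9 TPM in co-culture. MO2 and MC3 were high and the other 4 libraries low, whatever the group. Transcripts not annotated as protein coding held 60.3% and 67.7% of the Shmt1 TPM in MO2 and MC3 and 1.98% to 44.3% in the others. On the protein coding transcripts alone, Shmt1 was at 7.43, 6.37 and 4.19 TPM in MS-5 only and at 4.45 to 5.14 TPM in co-culture. The log2 fold change over all transcripts was -0.22 (SE 0.26, adjusted p = 0.822), and its sign turned to 0.10 when limma was run on TPM values.

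In the mitochondrial arm, Shmt2 (chr10:127517123-127522444, minus strand) encodes the mitochondrial serine hydroxymethyltransferase, where serine enters the route. It was measured at 359, 282 and 255 TPM in MS-5 only and at 282, 260 and 236 TPM in co-culture. The co-culture libraries lay within or just below the range of MS-5 only. The log2 fold change was -0.19 (SE 0.37, adjusted p = 0.921) and was 0.11 without MO1.

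Mthfd2 and Mthfd2l encode related mitochondrial dehydrogenase-cyclohydrolases, of which Mthfd2 is the form typical of embryonic and dividing cells. Mthfd2 (chr6:83305691-83325908, minus strand) was at 67.3, 78.4 and 57.2 TPM in MS-5 only and at 47.2, 59.1 and 48.3 TPM in co-culture. MC2 alone of the co-culture libraries reached the range of MS-5 only, and 19.3% of its Mthfd2 TPM lay on transcripts not annotated as protein coding, against 0% to 5.81% in the other libraries. On protein coding transcripts the levels were 66.6, 73.9 and 57.2 TPM against 46.9, 47.7 and 46.4 TPM, without overlap. Over all transcripts the log2 fold change was -0.43 (SE 0.25, adjusted p = 0.523), and it was -0.22 without MC3. Mthfd2l (chr5:90931117-91021368, plus strand) was at 13.3, 14.4 and 11.7 TPM in MS-5 only and at 10.1, 10.2 and 16.3 TPM in co-culture, with MC3 the highest of all 6 libraries. Its log2 fold change was -0.16 (SE 0.18, adjusted p = 0.804).

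Mthfd1l (chr10:3973118-4167081, plus strand) encodes the mitochondrial synthetase that releases formate, and Aldh1l2 (chr10:83487450-83534140, minus strand) the mitochondrial dehydrogenase that oxidises formyl-folate to carbon dioxide while reducing NADP. These were the 2 genes with positive log2 fold changes. Mthfd1l was at 41.5, 41.9 and 33.0 TPM in MS-5 only and at 44.7, 37.8 and 42.9 TPM in co-culture, with overlapping groups and a log2 fold change of 0.10 (SE 0.24, 95% interval -0.47 to 0.66, adjusted p = 0.944). Aldh1l2 was at 29.4, 70.8 and 29.9 TPM in MS-5 only and at 37.5, 27.9 and 60.9 TPM in co-culture. As for Shmt1, the high libraries were MO2 and MC3, but here the excess lay on a protein coding transcript, Aldh1l2-201, at 54.8 and 48.0 TPM in these libraries and 20.1 to 28.6 TPM in the others. The log2 fold change of Aldh1l2 was 0.03 (SE 0.21, 95% interval -0.49 to 0.54, adjusted p = 0.989).

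**Figure D2:**
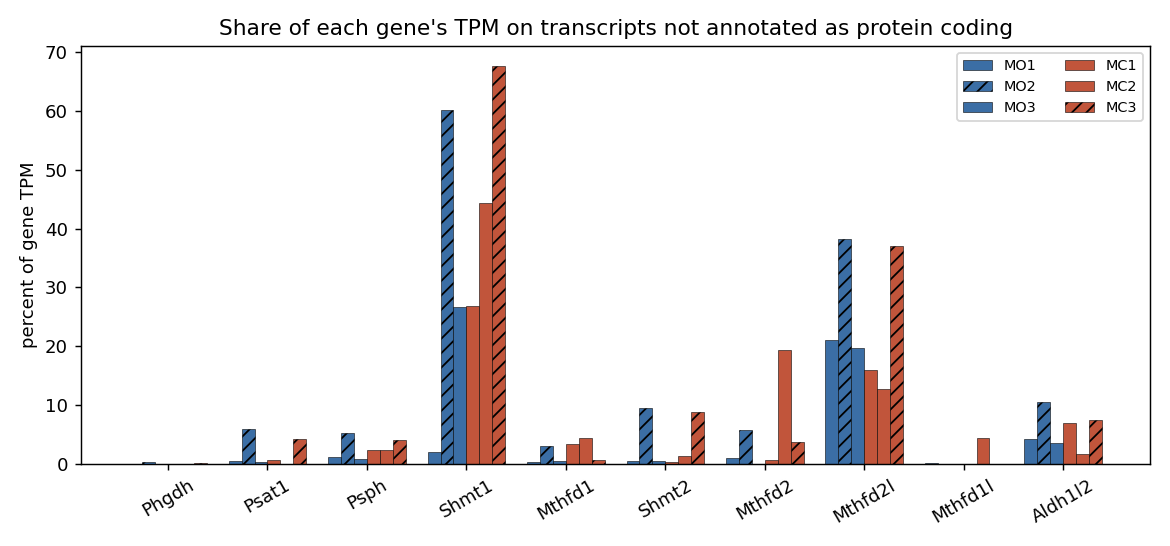
Percent of each gene's TPM (vertical axis, from 0) that was assigned to transcripts not annotated as protein coding, in MS-5 only (blue) and co-culture (red) libraries, with MO2 and MC3 hatched. The percent is higher in MO2 and MC3 than in each of the other 4 libraries for 7 of the 10 genes. It is not so for Mthfd1, Mthfd1l and Mthfd2, of which Mthfd2 is highest in MC2 (19.3%).

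The pattern of MO2 and MC3 was therefore visible within the pathway. For 7 of the 10 genes, the share of TPM on transcripts not annotated as protein coding was higher in both libraries than in each of the other 4, as for Shmt2 with 9.46% and 8.86% against 0.323% to 1.37%. This count was not taken over all genes, and for Phgdh it rests on only 2.87 and 1.46 estimated counts in MO2 and MC3. In log2 TPM, MC3 was then set against MO2, and the mean of MC1 and MC2 against that of MO1 and MO3. Both differences were negative for 6 of the 10, Phgdh, Psat1, Psph, Mthfd1, Shmt2 and Mthfd2, beside 39.9% of all genes tested. Phgdh differed by -0.46 on the log2 TPM scale between MC3 and MO2 and by -0.37 between the other libraries, and Mthfd1 by -0.71 and -0.60. For Mthfd2 the values were -0.70 and -0.23.

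When edgeR was given a covariate for MO2 and MC3, 5 of the 10 genes passed the threshold, all with lower values in co-culture, beside 16.4% of all genes tested that passed with lower values. They were Psph (log2 fold change -0.53, SE 0.08, adjusted p = 0.0158), Mthfd1 (-0.69, SE 0.13, adjusted p = 0.0200), Psat1 (-0.44, SE 0.09, adjusted p = 0.0240), Mthfd2 (-0.46, SE 0.12, adjusted p = 0.0456) and Phgdh (-0.41, SE 0.14, adjusted p = 0.0874). The fold changes hardly moved from those without the covariate, while the standard errors became smaller. The split behind the covariate is named by no label and was drawn from the profiles of these same libraries. These p-values therefore hold only given that split and are not an independent test. With MO2 and MC3 left out, Psph (-0.57, adjusted p = 0.0778) and Mthfd1 (-0.66, adjusted p = 0.0977) passed in edgeR, 2 of the 10 beside 4.71% of 13047 genes. Thus all 3 genes of serine synthesis and 1 gene of each folate arm passed with the covariate, and Shmt1, Shmt2, Mthfd2l, Mthfd1l and Aldh1l2 passed in neither of these fits.

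**Figure D3:**
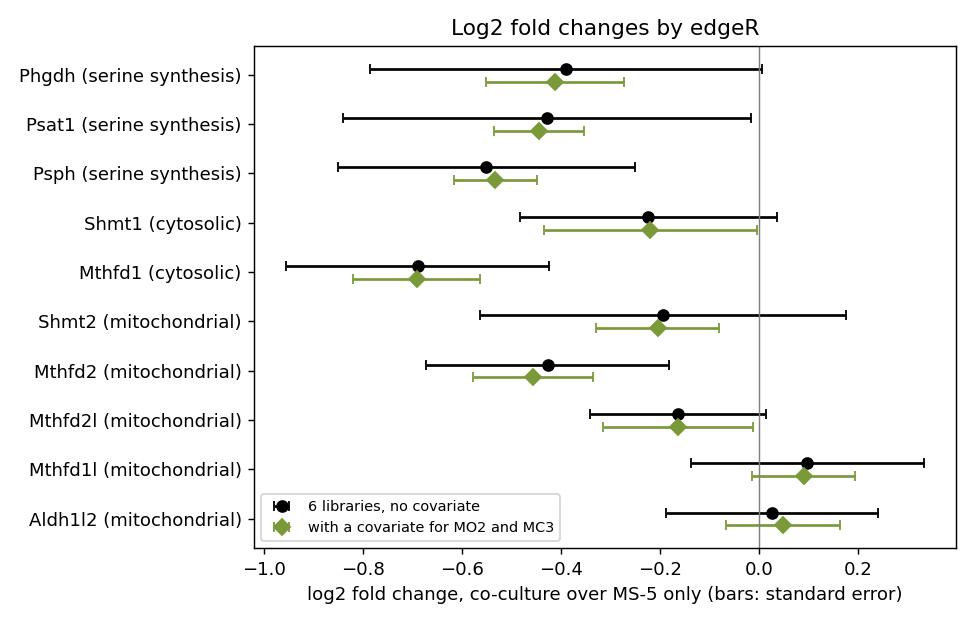
Log2 fold change of co-culture over MS-5 only (horizontal axis) for the 10 genes by edgeR, without a covariate (black circles) or with 1 that marks MO2 and MC3 (green diamonds), and bars of 1 standard error. Estimates are alike in both fits and bars are shorter with the covariate, as for Psat1 with an SE of 0.41 and 0.09.

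The mitochondrial arm held most of the folate-arm transcripts in both conditions. Its 5 genes summed to 511, 487 and 387 TPM in MS-5 only and to 421, 395 and 404 TPM in co-culture, and the 2 cytosolic genes to 47.1, 51.3 and 33.1 TPM and to 28.7, 29.5 and 37.5 TPM. The mitochondrial share of the sum was 91.4% ± 0.836 in MS-5 only and 92.7% ± 1.09 in co-culture (SD, n = 3), a difference of 1.35 percentage points with overlapping libraries. Shmt2 made up most of the mitochondrial sum in each library.

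Between corresponding enzymes, the formate-releasing Mthfd1l and the formate-using Mthfd1 gave the widest separation of the groups. The ratio of their TPM was 1.05, 1.19 and 1.21 without AML cells and 2.04, 1.76 and 1.99 in co-culture. The mean was 1.15 ± 0.0847 in MS-5 only against 1.93 ± 0.150 in co-culture (SD, n = 3), and all co-culture libraries, MC3 included, lay above all MS-5 only libraries. The difference of the log2 ratios was 0.75, with p = 0.1 in an exact two-sided permutation test, which is the smallest p that 3 against 3 libraries allow, and 0.3 after adjustment over the 3 ratios compared. The ratio of Shmt2 to Shmt1 differed by -0.30 on the log2 scale (exact permutation p = 0.5, adjusted 0.6) and that of Mthfd2 to Mthfd2l by -0.25 (exact permutation p = 0.6, adjusted 0.6). Both were lowest in MC3, and both differences turned positive when MC3 was left out (0.13 and 0.02).

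**Figure D4:**
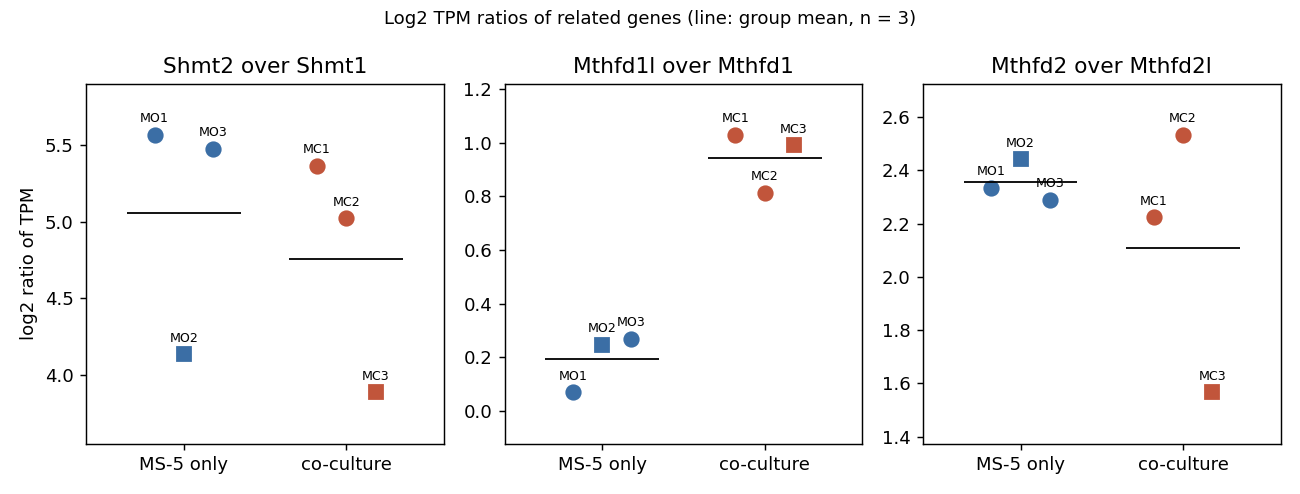
Log2 ratio of the TPM of corresponding genes (vertical axes, not starting at 0) in each library of MS-5 only (blue) and co-culture (red), with MO2 and MC3 as squares and the group mean as a line (n = 3). For Mthfd1l over Mthfd1 the co-culture libraries (0.81 to 1.03) lie above all MS-5 only libraries (0.07 to 0.27), and for the other two ratios MC3 is the lowest library.

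The genes around the pathway were described by 5 further lists with 49 genes, of which 44 could be tested: folate handling, glycine cleavage, the methionine and transsulfuration cycle, purine and thymidylate synthesis, and serine and glycine transport. None passed with all 6 libraries by edgeR, DESeq2 called 2 higher and 2 lower (beside 6.88% and 2.71% of all genes), and 6 were lower and 5 higher at an unadjusted p under 0.05, beside 5.63% and 8.62% of all genes. The median log2 fold change was -0.15, with 27 negative and 17 positive values. With the covariate for MO2 and MC3, 15 of the 44 passed with lower and 4 with higher values, beside 16.4% and 13.9% of all genes tested.

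Among these, Mtr, the methionine synthase that returns methyl-folate to use, was at 8.95, 14.5 and 7.39 TPM in MS-5 only and at 4.88, 5.34 and 8.004 TPM in co-culture. The log2 fold change was -0.56 (SE 0.13, adjusted p = 0.104 by edgeR), and MC3 overlapped MS-5 only in TPM, while in CPM all co-culture libraries lay below. Mtrr, which reactivates Mtr, had a log2 fold change of -0.68 (SE 0.19, adjusted p = 0.148). Mtr and Mtrr were the 2 genes called lower by the DESeq2 Wald test (adjusted p = 0.00843 and 0.0497), with 2 others called higher. Both also passed in edgeR with the covariate for MO2 and MC3 (adjusted p = 0.0164 and 0.0393). Ppat, which commits PRPP to purine synthesis, was at 21.3, 18.4 and 17.8 TPM in MS-5 only and at 10.5, 12.4 and 15.1 TPM in co-culture, without overlap (log2 fold change -0.68, adjusted p = 0.221). Sardh, the mitochondrial sarcosine dehydrogenase, differed by -0.64 (adjusted p = 0.445) and Gldc, the glycine decarboxylase, by 0.84 (adjusted p = 0.214) at under 2 TPM. Folr1, a folate receptor, was also scarce, at 0.278 to 0.565 TPM in MS-5 only and 0.681 to 1.26 TPM in co-culture (log2 fold change 1.15, adjusted p = 0.311). Adssl1 of adenylate synthesis (0.37, adjusted p = 0.312) and the transporters Slc6a9 for glycine (-0.23, adjusted p = 0.641) and Slc38a2 for small neutral amino acids (-0.21, adjusted p = 0.633) had smaller log2 fold changes.

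A list of 30 genes held Atf4 and 29 genes known as its targets. Of the 30, 28 could be tested, and 3 were called higher and 0 lower by edgeR, beside 3.71% and 0.666% of all genes tested. The median log2 fold change of the list was -0.09, and 18 values were negative. With the covariate for MO2 and MC3, 9 of the 28 passed with lower and 4 with higher values, beside 16.4% and 13.9% of all genes tested. Ddit4, an inhibitor of mTORC1 signalling, rose from 73.5, 97.6 and 61.7 TPM to 160, 115 and 218 TPM (log2 fold change 1.07, adjusted p = 0.0734), and Cebpb, a transcription factor, from 24.3, 32.5 and 20.2 TPM to 38.6, 35.9 and 59.1 TPM (0.79, adjusted p = 0.0734). Vldlr, a lipoprotein receptor, passed with an adjusted p of 0.0747 on 1, 3 and 0 estimated counts without AML cells and 29, 119 and 49 in co-culture, with the leukocyte-marker-rich MC2 the highest. All 3 calls were lost with limma and when pseudogenes were left out, a setting in which calls over all genes went from 579 to 3. The log2 fold changes of Ddit4 and Cebpb were then 1.08 and 0.80 without pseudogenes and 1.06 and 0.77 with limma on log2(TPM + 0.5). For Vldlr they were 5.49 and 1.31, and fitted values at counts so near 0 depend on the constant added. Atf4 itself was at 197, 282 and 149 TPM in MS-5 only and 148, 186 and 300 TPM in co-culture (log2 fold change -0.02, 95% interval -0.45 to 0.41).

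Genes of proliferation formed a further list. All 18 listed genes had negative log2 fold changes, with a median of -0.58, and 13 of the 18 had lower TPM in co-culture without overlap, beside 7.53% of all genes tested. The lower calls by edgeR were 2, beside 0.666% of all genes tested. They were Rrm2, the ribonucleotide reductase subunit of S phase (297, 324 and 231 against 135, 133 and 192 TPM, log2 fold change -0.93, adjusted p = 0.0870), and Ccnb1, the mitotic cyclin (108, 142 and 112 against 58.9, 64.8 and 93.0 TPM, -0.75, adjusted p = 0.0742). Both calls were lost when any library or the pseudogenes were left out, with log2 fold changes of -1.07 to -0.74 for Rrm2 and -0.86 to -0.71 for Ccnb1 as each library was omitted. Calls over all genes were 0 when any 1 of the MS-5 only libraries was omitted. With the covariate 17 of the 18 passed with lower values, beside 16.4% of all genes tested, and Mki67 did not (log2 fold change 0.05, adjusted p = 0.789 by edgeR). The part of proliferation in the values of the serine and folate genes was not tested.

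**Figure D5:**
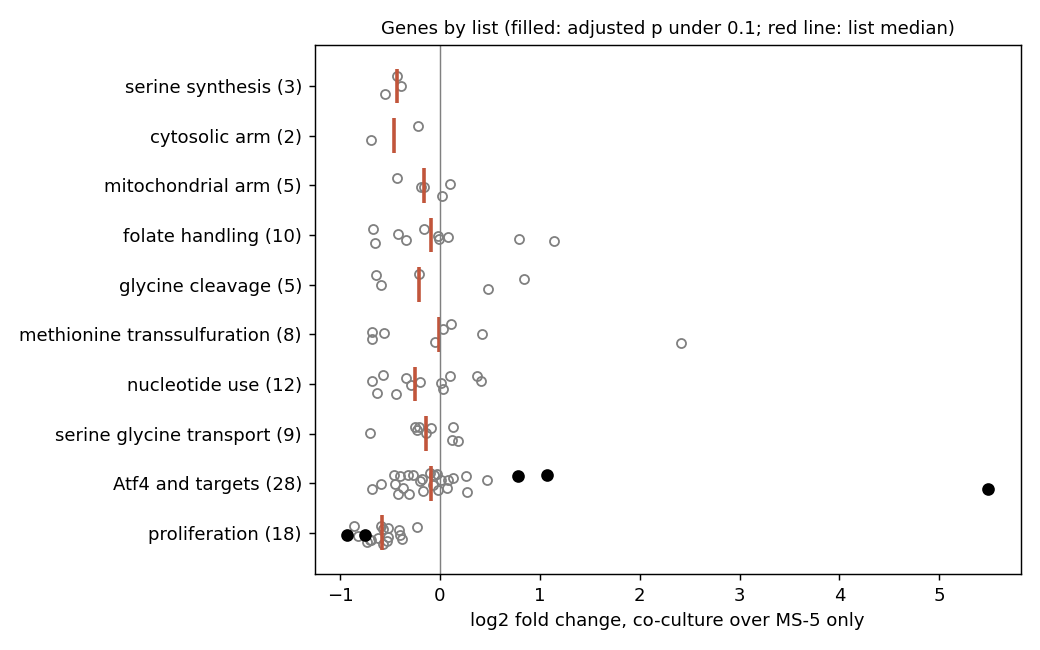
Log2 fold change of co-culture over MS-5 only (horizontal axis) by edgeR for the tested genes of each list (number in parentheses), with filled points for an adjusted p under 0.1, a red line at the list median, and vertical scatter within a list only to separate points. The filled points are Ddit4, Cebpb and Vldlr among Atf4 and its targets and Rrm2 and Ccnb1 among the proliferation genes, and every proliferation gene lies below 0.

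The genes whose profile over the 6 libraries was most like that of Phgdh were Phb (prohibitin, a scaffold of the mitochondrial inner membrane), Steap1, Aprt (adenine salvage) and Gm5905, with a root mean square difference of 0.0621 to 0.0818 in centred log2 CPM, of 9075 genes compared. Most like Mthfd2 were Anapc15, Mcm6 (a subunit of the replicative helicase), Rnf219 and Lsm2, at 0.0789 to 0.0924. Phgdh CPM was 431, 195 and 307 without AML cells and 308, 269 and 135 in co-culture, and the shared profile had its low values in MO2 and MC3, as in Phb with 39.3 and 31.1 CPM in these libraries and 57.1 to 88.3 CPM in the others.

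The promoters of 3 genes that passed with the covariate (Phgdh, Psat1 and Mthfd2) are shown beside that of Mthfd1l, which did not pass in it. The 10 windows of 300 bases (250 before and 50 after the RefSeq start, GRCm38.p6) cover 9 of the 10 genes, all but Aldh1l2. The part before the RefSeq start, up to the first base in any annotated exon, is given 5′ to 3′ on the strand of the gene, at chr3:98339991-98340219 (minus) for Phgdh, chr19:15925060-15925309 (minus) for Psat1, chr6:83317607-83317854 (minus) for Mthfd2 and chr10:3972825-3973074 (plus) for Mthfd1l. For Psat1 and Mthfd2 these stretches lie inside the gene spans given above, downstream of the outermost annotated start. Capitals mark ACGTG or GCGTG on either strand, the core letters of elements bound by hypoxia-inducible factors.
Phgdh: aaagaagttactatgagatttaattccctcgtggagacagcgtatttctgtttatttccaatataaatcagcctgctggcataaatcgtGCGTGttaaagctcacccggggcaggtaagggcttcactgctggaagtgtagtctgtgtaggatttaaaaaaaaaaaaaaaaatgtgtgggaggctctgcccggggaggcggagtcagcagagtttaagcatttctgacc
Psat1: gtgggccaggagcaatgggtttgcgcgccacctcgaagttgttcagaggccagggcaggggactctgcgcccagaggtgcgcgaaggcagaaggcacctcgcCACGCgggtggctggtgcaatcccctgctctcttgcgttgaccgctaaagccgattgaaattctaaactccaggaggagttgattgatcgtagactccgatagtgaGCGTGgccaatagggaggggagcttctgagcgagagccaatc
Mthfd2: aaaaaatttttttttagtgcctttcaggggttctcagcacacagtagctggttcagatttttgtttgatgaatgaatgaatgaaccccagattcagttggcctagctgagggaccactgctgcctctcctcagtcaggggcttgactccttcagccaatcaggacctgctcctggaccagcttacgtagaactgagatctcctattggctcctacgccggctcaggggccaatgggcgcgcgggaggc
Mthfd1l: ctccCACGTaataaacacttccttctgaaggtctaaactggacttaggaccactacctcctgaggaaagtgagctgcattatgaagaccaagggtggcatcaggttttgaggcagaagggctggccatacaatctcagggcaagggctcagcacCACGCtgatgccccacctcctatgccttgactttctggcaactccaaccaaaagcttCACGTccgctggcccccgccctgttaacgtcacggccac

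Over whole windows and both strands, GCGTG was found in 8 of the 9 genes, in 32.4% of all 32851 windows, with Mthfd2 the gene without it. ACGTG, which overlaps the E-box CACGTG, was found in Psat1, Psph and Mthfd1l and in 19.6% of all windows. The E-box itself (7.15% of windows) and the ATF4 element TGATGNAA (3.97%) were found in none of the 9, and the E2F element TTTCNCGC (2.09%) in Shmt2. Psat1 has 2 windows for different starts, both searched. The windows of Phgdh, Psat1, Mthfd2 and Mthfd1l held 11, 20 (30 in the window not shown), 15 and 8 CG pairs, beside a median of 7 over all windows. A match of letters is a description and not a binding site.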

How the data were processed

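RNA-seq libraries were assigned to MS-5 only (n = 3) and co-culture (n = 3) from the labels. The authors quantified reads with Kallisto (0.43.0 in the submitters' processing notes) against mouse GRCm38 cDNA and deposited, for each transcript, estimated counts that are not normalized between libraries. The deposited TPM of the authors is divided by effective length and scaled to 1 total per library. The deposited lengths and effective lengths were used only for a length offset and for counts per kilobase. No human transcripts were in the index, so human reads could be counted only where they resembled mouse transcripts.

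Transcripts were summed per gene by GENCODE M21 (116728 of 118489 matched), and summed counts were rounded to whole numbers. Genes passing filterByExpr were normalized by TMM and tested by the quasi-likelihood method of edgeR 4.0.16 in R 4.3.3. P-values were adjusted over 13221 genes by the Benjamini-Hochberg method, with a threshold of 0.1 as in the study's results. Adjusted p-values in the text come from edgeR unless another tool is named. The standard error was taken as the size of the log2 fold change over the square root of F. CPM values are TMM-normalized. The tests were tried on simulated counts.

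The genes and lists were chosen with earlier results of these data known. Named were the 10 genes; of each other list, all genes past the threshold or, with none, those 2 with the smallest p; and 4 genes each most like Phgdh and Mthfd2. One named result is not reported here. Alternatives were DESeq2 1.42.0 (size factors, or Wald test without independent filtering), library size, limma 3.58.1 on log2(TPM + 0.5, 0.1 or 1), a length offset, other filters, protein coding transcripts only, pseudogenes left out, replicate numbers as blocks, MO2 and MC3 marked by a covariate or omitted, each library left out, and other thresholds. Of the list symbols, Ddit3 named more than 1 gene and that with more counts was used. Sequences are from RefSeq (GRCm38.p6). Depth ranged from 23978881 to 35694987 estimated counts; the 10 genes held 233 to 17960 per library, so the spread between libraries limits their precision.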

Additional observations from a re-analysis of the deposited data

How the results depend on the processing

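The count of the 10 genes past the threshold was 0 in either direction under every alternative except for lower values with the covariate for MO2 and MC3 (5), without these libraries (2) and at an unadjusted p under 0.05 (1); it was 0 with each library left out, where lower calls over all 13361 to 14058 genes were 0 to 26, so that these counts say little. The 44 related genes gave 2 higher and 2 lower with DESeq2, 1 higher with limma on log2(TPM + 0.1) (beside 3.65% of all genes), 1 and 1 with the length offset (3.37% and 0.333%), 4 and 15 with the covariate, 1 and 7 without MO2 and MC3 (8.33% and 4.71%), 5 and 6 at the unadjusted threshold, and 0 with a library left out. The 3 ATF4 targets called higher became 0 with limma at each pseudocount, with protein coding transcripts only, with pseudogenes left out and at an adjusted p under 0.05, and 0 to 3 with a library left out, 3 only without MC3. Of the 28 tested, lower calls were 9 with the covariate (beside 16.4% of all genes, and with 4 higher calls beside 13.9%), 2 without MO2 and MC3 (beside 4.71%, and with 4 higher beside 8.33%) and 1 at the unadjusted threshold (beside 5.63%). With protein coding transcripts only or pseudogenes left out, calls over all genes fell from 579 to 3; the cause was not tested.

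Signs turned for the ratio of Shmt2 to Shmt1 with protein coding transcripts (0.071) and without MC3 (range with a library left out -0.76 to 0.13), for Mthfd2 to Mthfd2l without MO2 and MC3 (0.066) and without MC3 (-0.46 to 0.023), for Shmt1 with limma (0.10, 0.11 and 0.093 at pseudocounts of 0.5, 0.1 and 1), with the length offset (0.090) and without MO1 (range with a library left out -0.38 to 0.11), for Shmt2 without MO1 or MC3 (-0.43 to 0.11), for Mthfd1l without MO2 or MC1 (-0.075 to 0.28), and for Aldh1l2 with the length offset (-0.0023) and without MO1, MO3, MC1 or MC3 (-0.062 to 0.25); the cause was not tested. The log2 ratio of Mthfd1l to Mthfd1 differed by 0.69 to 0.81 and the mitochondrial share by 0.889 to 1.96 points with a library left out.

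With each library left out, log2 fold changes were -0.64 to -0.06 for Phgdh, -0.70 to -0.14 for Psat1, -0.79 to -0.33 for Psph, -0.86 to -0.42 for Mthfd1, -0.63 to -0.22 for Mthfd2 and -0.25 to -0.05 for Mthfd2l.

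With the replicate number as a block, 0 of the 10 genes passed (Phgdh -0.40, Mthfd1 -0.68 on the log2 scale), 2 ATF4 targets were called higher, and calls over all genes went from 579 to 444, of which 443 were higher and 1 lower (88 lower without the block), so that 0 of the 10 says little. Deviations of same-numbered libraries correlated at 0.53, -0.29 and -0.52, so the numbers were not taken as pairs; MO2 and MC3 correlated at 0.73.

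Groups of 3 libraries cannot give an exact permutation p under 0.1. Standard errors were widest for Psat1 and Phgdh (0.41 and 0.40) and not for the genes with the fewest counts. Reads shared with pseudogenes make the level of Phgdh uncertain.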
